A study of Gossypium barbadense and Gossypium hirsutum with 4 samples.

Results

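Signals for 4 genes of families linked to the thickening of the cotton fiber wall were examined in fibers at 11 dpa (days post anthesis), while the fibers were still elongating. The genes encode a fasciclin-like arabinogalactan protein, a COBRA protein, a laccase and a sucrose synthase. Which members of these families the probe sets read was not resolved. The genes were taken by 4 listed probe sets of the Affymetrix cotton array together with every probe set that shares the name prefix and cluster number of a listed one. This rule gave 5 of the 24029 probe sets compared. The arabinogalactan protein, COBRA and sucrose synthase clusters hold 1 probe set each and the laccase cluster holds 2. The listed probe sets are rows of the study's table of differential genes, which holds both directions and is sorted by the difference of the genotypes. Only its first 1159 rows were used here, and all of these are at least 2-fold higher in Gh. The difference of the listed probe sets between the genotypes is therefore described without a test. Of the 5 members only Gra.3026.3.A1_s_at, which came in by its cluster number, was tested. Further names from these rows are given with p-values as descriptions only, since the same contrast chose the rows.

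Total RNA came from fibers of untreated glasshouse plants of G. barbadense VH8-4602 (Gb) and G. hirsutum Guazuncho 2 (Gh), with 2 arrays per genotype. Each RNA was pooled from 4 plants and each genotype is represented by 1 variety, so that species and variety cannot be told apart. The sample labels and the methods give 11 dpa, whereas another section of the study gives a slightly earlier age for these hybridizations. The signals are log2 values normalized with gcrma over the 4 arrays, and differences are Gb minus Gh, so that a negative value means a lower signal in Gb. Signals under log2 4 were regarded as not measurable, and 51.1% to 51.6% of the probe sets of an array reached this floor. The genotypes were compared by limma over all probe sets with Benjamini-Hochberg adjustment, and 20.3% of the probe sets passed an adjusted p of 0.05 (8.87% higher in Gh and 11.4% higher in Gb). Since names were known for these rows alone, markers of fiber or of other seed tissues could not be checked.

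The fiber of cotton is a single cell of the seed epidermis that first elongates with a thin primary wall and later deposits a thick wall of nearly pure cellulose. Fasciclin-like arabinogalactan proteins are glycoproteins of the cell surface, many of them held to the membrane by a lipid anchor, and COBRA is an anchored protein of the same surface that in Arabidopsis is needed for the oriented deposition of cellulose. Sucrose synthase splits sucrose into fructose and UDP-glucose, the substrate of cellulose synthase. Laccases are copper enzymes that oxidize phenolic compounds and, in woody tissues, take part in forming lignin.

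All 4 listed probe sets had measurable signal in both genotypes at this age, and on each of them the Gb arrays lay below the Gh arrays. The largest gap was that of the arabinogalactan protein, which was low in Gb and bright in Gh. Sucrose synthase was among the brightest probe sets of all arrays, with the smallest gap between the genotypes. Signals also depend on the affinity of the probes. The position of a probe set on the array is therefore not a measure of transcript level, and the members are not ordered by it. On the whole array 19.7% of the probe sets had both Gb arrays below both Gh arrays and 5.2% were at least 2-fold higher in Gh. The choice of rows fixed the direction of the listed probe sets, so nothing is read from it.

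**Figure D1:**
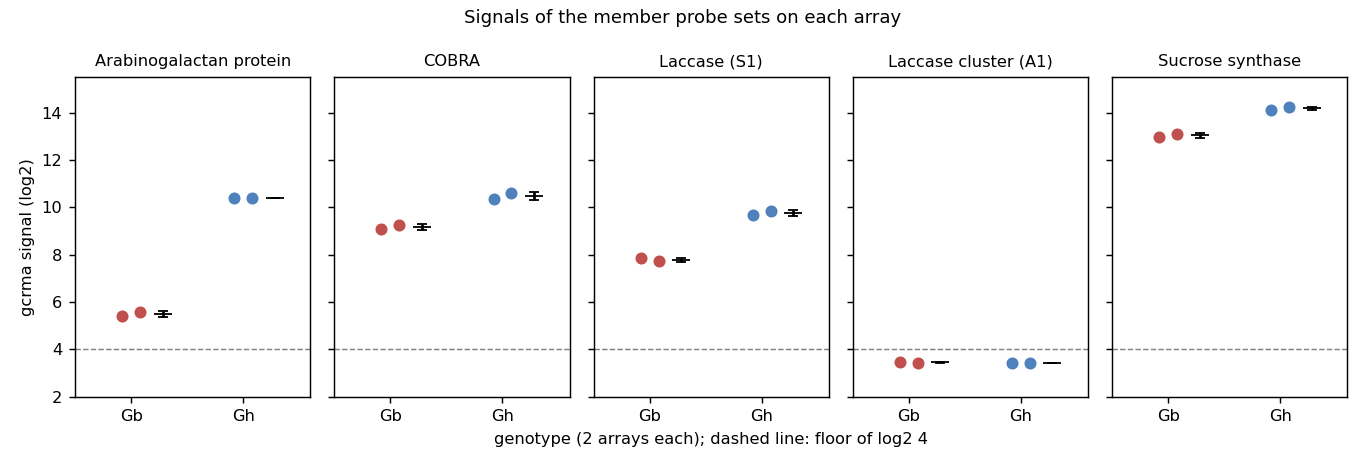
Log2 gcrma signals (vertical axis) of the 5 member probe sets in Gb (left in each panel) and Gh (right). Points are single arrays, the black mark beside them is the mean ± SD (n = 2), and the dashed line is the floor of 4. The laccase probe set A1 lies under the floor in both genotypes, and in the other panels the Gb points lie below the Gh points.

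The fasciclin-like arabinogalactan protein probe set (GhiAffx.13672.1.S1_s_at) had log2 signals of 5.39 and 5.60 on the Gb arrays, against 10.39 and 10.41 on the Gh arrays. The Gb arrays were low and the Gh arrays high, and arrays of the same genotype lay within 0.21 (Gb) and 0.02 (Gh) of each other. The difference was -4.90 on the log2 scale (standard error 0.09, n = 2 arrays per genotype), which is a 30.0-fold lower signal in Gb. Only 73 probe sets of the array had a lower difference. In Gb the signal exceeded that of 54.6% and 55.5% of the probe sets on the array, and in Gh that of 85.7% and 85.9%. Only 51.1% of the probe sets reached the floor on each Gb array. The Gb positions thus lie shortly above the probe sets that are not measurable, and the size of the fold rests on dim Gb signals.

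Other fasciclin-like proteins were searched by name in the annotated rows, which gave 2 further probe sets. Here and in the other lists, rows higher in Gb were not searched. Members of these families that are higher in Gb, or that differ little, could therefore not appear among the names. Ghi.4418.2.S1_s_at, described by its similarity to FLA11 of Arabidopsis, a fasciclin-like protein known from stems with thickened walls, had 6.05 and 6.02 in Gb, against 7.26 and 7.20 in Gh (difference -1.19, adjusted p = 0.00366 from limma). Ghi.9544.4.S1_s_at, named as a fasciclin-like domain protein, had 8.48 and 8.75 in Gb, against 9.31 and 9.98 in Gh, and did not pass (difference -1.03, adjusted p = 0.124 from limma). In all 4 lists of names used here, the names come from the rows that this contrast put first on the same arrays. Their direction, p-values, calls, counts and medians are therefore descriptions and not independent evidence. The clusters of these names hold 4 probe sets outside the rows, and none passed the threshold. An unadjusted p under 0.05 from limma was found for 1 of the 4, and for 7826 of all 24029 probe sets. The methods' t-test with Benjamini-Hochberg adjustment called 2 of the 4, and 31.1% of all the probe sets it could use. Nothing is read from these counts. Among the 4, Ghi.4418.1.S1_s_at had 5.87 and 6.15 in Gb, against 6.68 and 6.49 in Gh (difference -0.58, adjusted p = 0.0867 and unadjusted p = 0.0225 from limma). Ghi.9544.1.S1_s_at, bright on all arrays with a mean of 13.32 in Gb and 13.67 in Gh, had a difference of -0.35 (standard error 0.16).

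The COBRA probe set (Ghi.8180.1.A1_s_at) had log2 signals of 9.09 and 9.25 on the Gb arrays, against 10.36 and 10.60 on the Gh arrays. The nearest arrays of the genotypes differed by -1.11 and the farthest by -1.52, and the arrays were 0.16 apart within Gb and 0.25 within Gh. The difference was -1.31 (standard error 0.12), a 2.48-fold lower signal in Gb, and 852 probe sets had a lower one. The signal exceeded that of 76.6% and 77.5% of the probe sets on the Gb arrays and 85.5% and 87.0% on the Gh arrays. The protein is named COBRA by Blast2GO, and the array description gives a moderate similarity to ATSEB1 of Arabidopsis. Whether it is COBRA itself or a relative was not checked, and no other probe set shares its cluster.

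Proteins that build or trim wall glycans were the next list, which holds 5 names beside COBRA. All 5 passed the limma threshold with a higher signal in Gh, as did 8.87% of all probe sets, and nothing is read from this count because the rows were chosen by the same contrast. Their median difference was -3.68, or -2.27 when the signals under the floor in Gb are set to it. The median over all probe sets was 0.04, a gap that the choice of rows fixes. Ghi.3562.1.A1_at, a cellulose synthase-like protein of the CSLE group, had 2.77 and 2.60 in Gb, under the floor, against 6.49 and 6.45 in Gh (adjusted p = 0.00241 from limma). This puts the Gh mean at 5.55-fold or more over Gb. Such minimum folds, here and below, set the Gh mean against the floor, so a single Gh array can lie under them. Ghi.7514.1.S1_s_at, of the CSLA group, whose members make mannan chains, had a mean of 10.71 in Gb and 11.75 in Gh (adjusted p = 0.021 from limma). The other names were xylosidases, which remove xylose units from wall polymers. Ghi.8524.1.S1_at, similar to BXL1, had a difference of -4.42 (mean 5.79 in Gb and 10.21 in Gh), and Ghi.5042.1.A1_s_at of -2.21. Ghi.9633.2.S1_s_at was not measurable in Gb and at least 4.83-fold higher in the Gh mean, with 5.80 and 6.74 on the Gh arrays. A fit without 1 array leaves its genotype with 1, which is assumed to vary like the arrays of the other genotype. In such fits without either Gb array 3 of the 5 calls remained, and those of Ghi.7514.1.S1_s_at (adjusted p = 0.0938 and 0.0861) and Ghi.9633.2.S1_s_at (adjusted p = 0.0946 and 0.0852) were lost in limma. None of these clusters holds a further probe set.

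The laccase probe set (Gra.3026.3.S1_s_at), designed from G. raimondii, had log2 signals of 7.85 and 7.72 on the Gb arrays, against 9.67 and 9.84 on the Gh arrays. The genotypes did not overlap, and arrays of the same genotype lay within 0.13 (Gb) and 0.17 (Gh). The difference was -1.96 (standard error 0.09), a 3.90-fold lower signal in Gb, and 476 probe sets had a lower one. The signal exceeded that of 68.2% and 67.1% of the probe sets on the Gb arrays and 80.9% and 82.1% on the Gh arrays. The array description gives a weak similarity to a diphenol oxidase of rice, and Blast2GO gives a laccase of Ricinus.

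The other probe set of the laccase cluster, Gra.3026.3.A1_s_at, had 3.47 and 3.45 in Gb, against 3.43 and 3.42 in Gh, below the floor on every array, so that no fold is given. Its test therefore compared signals that are not measurable and says nothing of the gene (adjusted p = 0.429 and unadjusted p = 0.308 from limma). The methods' t-test did not call it either, and with Benjamini-Hochberg adjustment called 31.1% of the probe sets it could use. Its Gb arrays lay just above its Gh arrays, as did those of 62.3% of the probe sets. In the names of the array A1 and S1 stand for the opposite orientations of a consensus sequence, so that the laccase signal was carried by 1 orientation. Of the 2040 pairs of this kind on the array, 1001 (49.1%) had 1 probe set above the floor on every array and the other below it on every array. In 632 of them S1 was above the floor and in 369 A1. In the lists used here 5 such pairs occur, and in each of them 1 probe set was below the floor on all arrays. For the cinnamyl alcohol dehydrogenase Gra.798.1.S1_s_at, which had 3.96 and 4.18 in Gb, against 8.47 and 8.44 in Gh, the A1 partner had 2.19 and 2.16 in Gb and 2.44 and 2.17 in Gh.

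**Figure D2:**
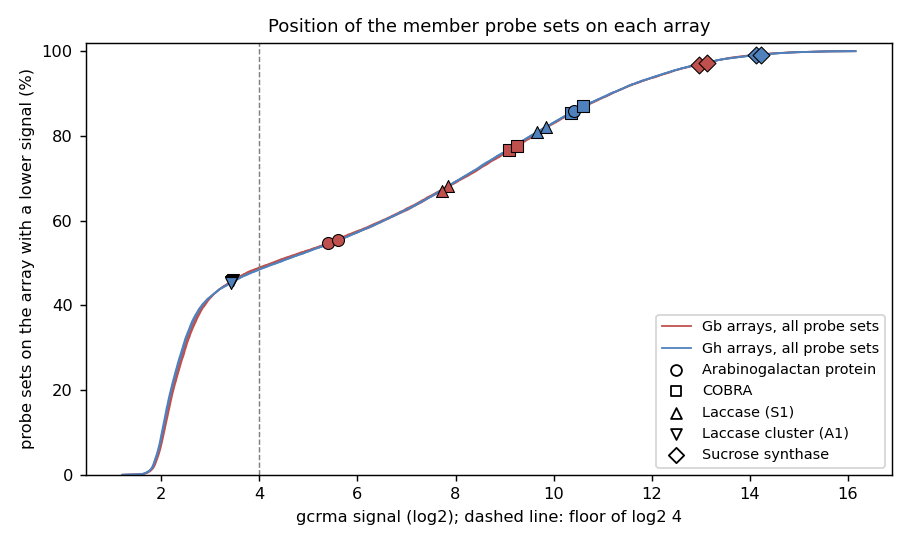
Share of the 24029 probe sets of an array with a lower signal (vertical axis, %) against the log2 gcrma signal (horizontal axis). The lines are the 2 Gb and the 2 Gh arrays, which nearly coincide, and each symbol is a member on 1 array. The arabinogalactan protein differs most, at 54.6% and 55.5% in Gb against 85.7% and 85.9% in Gh, and sucrose synthase lies at 96.8% or above.

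Laccases act on the same kind of compounds as the enzymes that make monolignols, the phenolic precursors of lignin. The list of these enzymes, of other copper proteins and of peroxidase 12, a heme enzyme that also oxidizes phenolic compounds, holds 12 names beside the laccase. Of these, 10 passed the limma threshold with a higher signal in Gh (8.87% over all probe sets) and 2 did not pass, a count set by the choice of rows. The median difference was -2.57, or -2.25 with the signals under the floor in Gb set to it. Among the monolignol enzymes, the cinnamoyl-CoA reductases GhiAffx.50774.1.S1_s_at and GraAffx.16056.1.S1_s_at were bright in both genotypes. GhiAffx.50774.1.S1_s_at had 10.65 and 10.36 in Gb, against 12.58 and 12.45 in Gh (adjusted p = 0.0089 from limma), and GraAffx.16056.1.S1_s_at had 10.69 and 10.79 in Gb, against 12.29 and 12.21 in Gh. A caffeic acid O-methyltransferase (Ghi.10580.1.S1_s_at) was at 5.97 in Gb and 8.63 in Gh on average, a difference of -2.66. Gra.798.1.S1_s_at had a difference of -4.38, the size of which rests on Gb signals near the floor (3.96 and 4.18). The cinnamyl alcohol dehydrogenase Gra.2877.1.A1_at was not measurable in Gb (2.25 and 2.62) and at least 7.69-fold higher in Gh. The copper proteins differed widely among themselves. Ghi.2396.1.S1_s_at, similar to SKS4, a relative of the laccases, had 2.52 and 2.48 in Gb, against 10.46 and 10.54 in Gh, at least 90.5-fold higher in Gh, while the ascorbate oxidase GhiAffx.32860.1.S1_at had 5.65 and 4.76 in Gb, against 6.35 and 6.30 in Gh, and did not pass (adjusted p = 0.156 from limma). The other name that did not pass was a cinnamoyl-CoA reductase, Ghi.6181.1.S1_s_at (adjusted p = 0.0654 from limma). In limma the calls of the blue copper protein GhiAffx.16779.1.S1_x_at (without either Gh array, adjusted p = 0.0658 and 0.0737), peroxidase 12 (GhiAffx.24987.1.S1_s_at) and the cinnamoyl-CoA reductase Gra.2913.1.A1_s_at (without either Gb array, adjusted p = 0.0710 and 0.0700 for GhiAffx.24987.1.S1_s_at and 0.0642 and 0.0776 for Gra.2913.1.A1_s_at) were lost.

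The sucrose synthase probe set (Ghi.8665.1.S1_s_at), designed from a complete cotton coding sequence, had log2 signals of 12.96 and 13.12 on the Gb arrays, against 14.13 and 14.23 on the Gh arrays. Its signal was high on all arrays, above 96.8% and 97.3% of the probe sets on the Gb arrays and 99.0% and 99.1% on the Gh arrays. The nearest arrays of the genotypes differed by -1.01 and the farthest by -1.27, and the arrays were 0.15 apart within Gb and 0.10 within Gh. The difference was -1.14 (standard error 0.08), a 2.20-fold lower signal in Gb, and 1061 probe sets had a lower one. Of the listed probe sets it lay closest to the 2-fold limit of the rows. In the 4 clusters the only probe set outside that limit was Gra.3026.3.A1_s_at, with a difference of 0.03.

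The array also carries control probe sets for a cotton transcript labelled ss1, a label that the sources used here do not spell out. Those designed from G. raimondii were below the floor on every array, and the ss1 values that follow are of those designed from G. hirsutum. They were left out of the comparison, and they were looked up after the values of sucrose synthase had been seen. The probe set for the 3′ part of ss1 had 12.89 and 13.06 in Gb, against 14.02 and 14.00 in Gh, a difference of -1.03. The difference was -1.74 for its middle part and -1.87 for its 5′ part, where the Gh arrays stood apart (8.03 and 8.02 in Gb, against 9.41 and 10.38 in Gh). The 5′ minus 3′ value of ss1, a sign of RNA quality and of complete cDNA, was thus -4.87 and -5.04 in Gb, against -4.62 and -3.62 in Gh. For the actin control designed from G. hirsutum it was -3.03 and -3.07 in Gb, against -2.52 and -2.18 in Gh. For the control labelled ubq11 designed from G. hirsutum it was -1.94 and -1.80 in Gb, against -1.79 and -1.36 in Gh. The actin control designed from G. raimondii had -4.50 and -3.98 in Gb, against -3.34 and -2.78 in Gh. Relative to the 3′ part, the 5′ part was thus weaker in Gb in these controls. The 5′ signal itself was higher in Gb on average for ubq11 (difference 0.15) and for the G. raimondii actin (0.32). Any part of this in the differences of the listed genes was not tested.

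**Figure D3:**
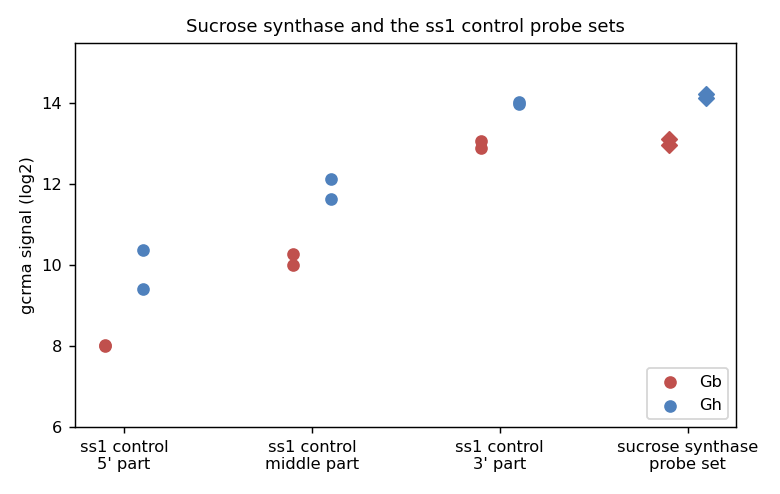
Log2 gcrma signals (vertical axis) of the 3 control probe sets for the ss1 transcript designed from G. hirsutum, by the part of the transcript they cover, and of the sucrose synthase probe set (diamonds), for each Gb array (left in each pair) and each Gh array (right). The Gb points lie below the Gh points in all 4 columns, with a difference of -1.87 at the 5′ part and -1.03 at the 3′ part of ss1.

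The list of enzymes that act on sucrose, UDP-glucose, related sugars or sugar phosphates was again drawn from rows chosen by this contrast, which set the count of calls. It holds 11 names beside sucrose synthase. Of these, 10 passed the limma threshold with a higher signal in Gh (8.87% over all probe sets), and the trehalose-6-phosphate enzyme Ghi.3451.2.A1_at did not (adjusted p = 0.100 from limma). The median difference was -1.36, or -1.09 with the signals under the floor in Gb set to it. The enzymes of this list differed widely in signal. UDP-glucose pyrophosphorylase (GraAffx.25147.2.S1_s_at), which interconverts UDP-glucose and glucose 1-phosphate, had 11.67 and 11.68 in Gb, against 12.58 and 12.96 in Gh. Phosphoglucomutase (Ghi.9778.1.S1_s_at) had 12.52 and 12.71 in Gb, against 13.57 and 13.76 in Gh, and fructokinase (Ghi.9897.1.S1_s_at), which uses the fructose set free by sucrose synthase, 8.96 and 8.88 in Gb, against 10.14 and 10.15 in Gh. Another phosphoglucomutase probe set, Gra.1596.1.A1_at, was not measurable in Gb (2.50 and 2.82), against 4.41 and 4.46 in Gh. Among the pyrophosphate-dependent phosphofructokinases the difference was -1.82 for GhiAffx.52253.1.S1_s_at and -2.84 for GhiAffx.64086.1.S1_at. Another of them, GhiAffx.4334.1.S1_at, was not measurable in Gb (1.99 and 2.07), against 4.80 and 5.13 in Gh, at least 1.95-fold higher in Gh. In limma 5 of the 10 calls were lost in fits without 1 of the arrays, and without the second Gb array 6 of the 10 remained. Without either Gb array those of GraAffx.25147.2.S1_s_at (adjusted p = 0.131 and 0.130), Ghi.9778.1.S1_s_at (0.0654 and 0.0568) and Gra.2095.2.S1_s_at, a UDP-glucose dehydrogenase (0.107 and 0.101), were lost. Without either Gh array the call of another UDP-glucose dehydrogenase, Ghi.8750.1.A1_at, was lost (adjusted p = 0.0711 and 0.0775), as was that of the hexokinase Ghi.7480.1.A1_at (adjusted p = 0.0861 and 0.0743), which was also lost without the second Gb array (adjusted p = 0.0577).

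**Figure D4:**
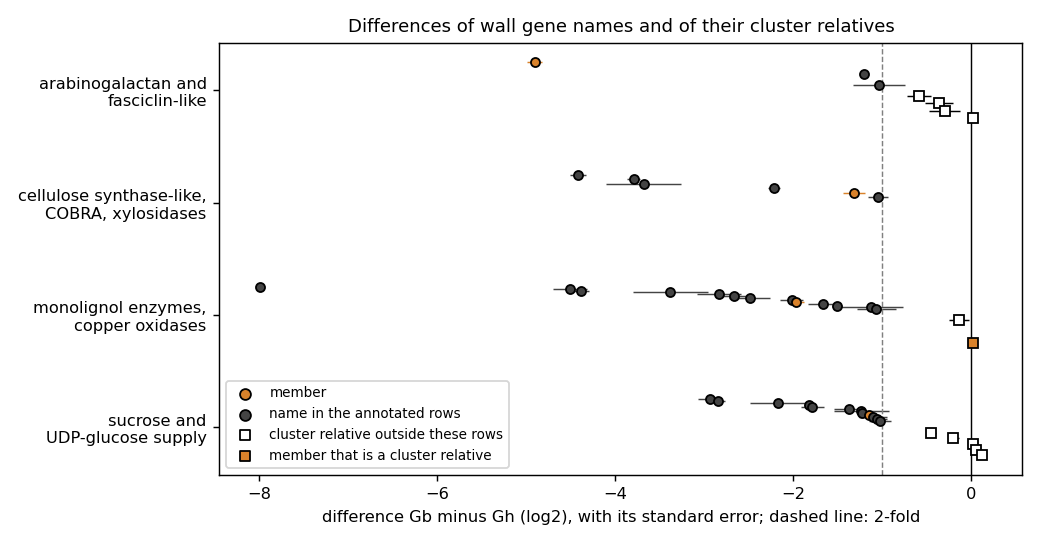
Difference Gb minus Gh (horizontal axis, log2, with its standard error) of the names in the 4 role lists (circles) and of the probe sets that share a cluster with a name but are not among the 1159 annotated rows (squares). Members are orange, and the dashed line marks 2-fold. The circles lie left of the line because the rows were chosen so, and the squares lie between -0.58 and 0.13.

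The probe sets that share a cluster with a name of the 4 lists, but stand outside the annotated rows, came in by their cluster number, but rows at least 2-fold higher in Gh are mostly absent among them by construction. There are 10 of them beside the laccase member, and 6 of these were below the floor on every array. In limma 1 passed the threshold and 20.3% of all probe sets did, shares that cannot be set against each other for these reasons. The 1 called belongs to the UDP-glucose pyrophosphorylase cluster. This probe set, GraAffx.25147.1.A1_s_at, had 5.57 and 5.47 in Gb, against 6.01 and 5.93 in Gh, lower in Gb by a difference of -0.45, with a standard error of 0.06 (adjusted p = 0.0259 from limma). Its call was lost without any 1 of the 4 arrays (adjusted p = 0.0622 to 0.0830 from limma), in fits with 1 array in a genotype, where its difference was -0.50 to -0.39. The differences of the 10 probe sets were between -0.58 and 0.13. An unadjusted p under 0.05 from limma was found for 4 of the 10, and for 7826 of the 24029 on the array. Among these 4, GraAffx.25147.3.A1_at was below the floor on every array and higher in Gb (difference 0.13, unadjusted p = 0.0498 from limma). The others were measurable and lower in Gb. The methods' t-test called 3 of the 10 with Benjamini-Hochberg and 0 with Bonferroni. On the whole array it called 7328 and 3906 of the 23586 it could use, in the same order. No conclusion is drawn from these counts, for the reasons above.

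The listed probe sets end in _s_at, a class that can hybridize with several transcripts, as do 38.7% of the probe sets, and copies of a gene from the A and D genomes of these tetraploids may be read together. The 3 members named Ghi or GhiAffx were designed from G. hirsutum and the laccase probe sets from G. raimondii. Among probe sets with a mean signal of at least 5, 8.44% of those designed from G. hirsutum were at least 2-fold lower in Gb and 7.90% at least 2-fold higher, against 6.61% and 5.96% of those designed from G. raimondii. The match of single probes to Gb transcripts was not tested. Fewer fiber cells in a sample and less transcript per cell cannot be told apart either.

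Probe sets whose values run most alike were searched among the 688 annotated rows that carry a protein name, by the distance of the deviations from their own mean over the 4 arrays. These rows share the direction by choice, so the matches describe the size of the difference and the replicate spread. For COBRA the nearest was a calcium-transporting ATPase (Gra.3108.2.S1_s_at, distance 0.04, difference -1.34), followed by a proteasome subunit (Gra.2230.1.S1_s_at, distance 0.06) and an acid phosphatase (Ghi.1306.1.S1_s_at, distance 0.07). The nearest to sucrose synthase were a Ran GTPase binding protein (Ghi.7360.1.A1_at, distance 0.04, difference -1.15), a cytosine deaminase (Ghi.7336.1.S1_at, 0.05) and an HSP70-interacting protein (GhiAffx.5917.1.S1_s_at, 0.06). For the laccase they were an inter-alpha-trypsin inhibitor (Ghi.8718.1.S1_s_at, distance 0.04, difference -1.94), a plasma membrane intrinsic protein (GraAffx.4978.1.A1_s_at, 0.09, not measurable in Gb) and EMB2753 (Ghi.4651.1.A1_a_at, 0.11). The distances were not scaled to the size of the difference, and only 73 probe sets of the array had a lower difference than the arabinogalactan protein. Nothing is therefore read from its lack of a match this close. An oxidoreductase (Ghi.9312.3.A1_x_at) was nearest at a distance of 0.20, with 9.37 and 9.49 in Gb, against 14.21 and 14.11 in Gh, and the next were a squalene enzyme (Gra.97.1.A1_s_at, 0.27) and arginine decarboxylase (Ghi.954.1.A1_s_at, 0.31). Both of these were under the floor in Gb, so that their distances and order rest on signals that are not measurable.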

How the data were processed

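The authors hybridized labeled RNA of Gb and Gh fibers to Affymetrix cotton arrays and normalized the 4 arrays together with gcrma in R. The tool is also listed in the submitters' processing notes, and its version was not given in the sources used here. Each array has 1 column of deposited log2 values. The authors' columns of differences and p-values in their table hold their own findings and were not used. From that table only annotation was taken, for its first 1159 rows (the later rows, which hold the other direction too, were not used here). The 103 control probe sets (AFFX) were left out, and the other 24029 were fitted on genotype alone by lmFit and eBayes of limma 3.58.1 under R 4.3.3 (two-sided p), and Benjamini-Hochberg adjusted p-values were read at 0.05. The moderated standard errors rest on 2 arrays per genotype and a prior of 1.10 degrees of freedom. The fit was tested on simulated data. The members and lists were chosen with earlier results of these data known. The probe sets named are all members, the names of 4 role lists with their cluster relatives, and the 3 nearest patterns. The methods' t-test assumes 1 variance for all probe sets and was run with Bonferroni adjustment, as the methods name it, and with Benjamini-Hochberg, and those of extreme variance were left out of it. Other scalings, filters, floors and arrays left out were the alternatives. Precision is limited by the number of arrays, and no detection calls were used. No sequence of these probe sets was used here. Plots were made in matplotlib 3.10.9.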

Additional observations from a re-analysis of the deposited data

Results flagged for a closer look

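The control probe sets of the ss1 transcript designed from G. hirsutum were outside the comparison of the genotypes and carried signal above the floor on every array. Their differences Gb minus Gh were -1.87 (5′ part, AFFX-Ghi-ss1-5_s_at), -1.74 (middle part, AFFX-Ghi-ss1-M_s_at) and -1.03 (3′ part, AFFX-Ghi-ss1-3_s_at) on the log2 scale. The Gb arrays lay below the Gh arrays in each of these 3 probe sets. The ss1 probe sets designed from G. raimondii were below the floor on every array.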

How the results depend on the processing

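The differences of the 4 listed probe sets stayed negative under all scalings and without any 1 array. Scaling to the hybridization controls moved them to -5.20 (GhiAffx.13672.1.S1_s_at), -1.61 (Ghi.8180.1.A1_s_at), -2.26 (Gra.3026.3.S1_s_at) and -1.43 (Ghi.8665.1.S1_s_at) and moved the median of all probe sets to -0.26. Leaving out 1 array gave -5.01 to -4.80, -1.43 to -1.19, -2.05 to -1.88 and -1.22 to -1.06, in the same order. The difference of Gra.3026.3.A1_s_at, below the floor, was 0.11 with array medians subtracted, -0.02 with cyclic loess and -0.26 with the control scaling, and it was called in no setting. It was below the floor on every array at a floor of 4 or 5 and not at 3. Over the whole array, 4880 probe sets were called (2749 with Gb higher, 2131 with Gh higher). The control scaling gave 7747 (1990 and 5757), array medians subtracted 5979 (3858 and 2121) and cyclic loess 4174 (2086 and 2088, in the same order). The methods' t-test called 3906 with the Bonferroni adjustment that the methods name and 7328 with Benjamini-Hochberg, the Bonferroni adjustment of limma 33, and fits without 1 array 2542 to 3947 (2798 without the first and 2542 without the second Gb array). Of the 10 cluster relatives, 1 was called, and 6 with the control scaling, 3 with the methods' t-test and Benjamini-Hochberg (0 with Bonferroni), 2 of the 4 that pass the filter on dim probe sets (log2 5, reached by 2 arrays or more), and 0 with an intensity trend, with the Bonferroni adjustment of limma, among the 4 without a cross-hybridizing ending, or without 1 array (0 to 0). With Bonferroni, limma called 0 of 2, 0 of 5, 1 of 12 and 0 of 11 names of the role lists, in the order of the text. The cause of these changes was not tested, except that the control scaling takes the same value from every difference. No paired analysis was possible because the array labels of the genotypes share no number. No member is left without the probe sets ending in _s_at.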
